A study of Homo sapiens with 2 samples.

Results

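The genes described here encode the enzymes and carriers that make, recycle and remove purine and pyrimidine nucleotides, the building blocks of RNA and DNA. A list of 32 genes was chosen by function, with earlier results of these data known. Every probe set that the platform annotation assigns to 1 of them alone was taken. This gave 72 probe sets for 29 of the 32 genes, out of 19775 genes named on the array. Of these probe sets, 63 were measured, meaning above the median signal (the floor) of at least 1 array, namely 28.7 without and 28.4 with stretch. NME2 and UCK2 share their probe sets with another annotated gene, and ADSS2 was not matched to a probe set, so these 3 are named without values. By its brightest probe set, each of the 29 genes exceeded the floor on both arrays.

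The study compared 2 cultures of Calu-3, a human lung adenocarcinoma line used as a model of airway epithelium. Both were labelled 18 h and, per the protocol, grown on collagen-coated flexible plates to about 80% confluence in medium containing 10% serum. Cyclic strain was applied to one of them as a sine wave (20% at its maximum, 0.7% at its minimum, 2 s on alternating with 2 s off), and the other was left unstretched. Each condition was measured on 1 array, so no value has a replicate, SD or test, every difference compares these 2 arrays, and less RNA per cell cannot be told apart from fewer cells making it.

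The 2 arrays had similar medians, and the 18 hybridisation spike-in probe sets differed by a median of -0.11 on the log2 scale (range -0.23 to -0.03). The ratio of 3' to 5' control signal was 1.04 and 1.01 for ACTB and 0.878 and 0.862 for GAPDH in the non-stretched and stretched arrays. A control probe set for 28S ribosomal RNA went from 657 to 5338, and a second one from 3149 to 5917; their part in the differences below was not tested. All 8 epithelial markers were measured, with a median log2 difference of -0.03; 1 was at least 2-fold lower, MUC1, at 2093 without and 767 with stretch (2.73-fold), and CLDN4 was at -0.67. Of 14 named leukocyte, endothelial and fibroblast markers, 7 were measured, with summed intensities of 483 and 420 over the brightest probe sets of all 14. PTPRC, VWF, CDH5 and PDGFRB were below the floor on each array, whereas COL1A1, CD14, PECAM1, DCN and ITGAM were above it on both. COL1A1 was at 126 and 105, but its other measured probe sets went from 174 to 30.35 and from 149 to 25.0. The SD of a single probe set's log2 difference, taken from 5818 genes with 2 or more probe sets, was 0.36. This SD holds probe noise and isoform differences but no variation between cultures.

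Cells obtain nucleotides along 2 routes. De novo synthesis builds the purine ring on activated ribose phosphate and the pyrimidine ring before its attachment to that sugar, while salvage rephosphorylates nucleosides and bases that are taken up or released by turnover. Ribonucleotide reductase then converts ribonucleoside diphosphates into deoxynucleotides, thymidylate synthase makes the thymine nucleotide, and phosphohydrolases trim the pool; several of these genes are known for peaking in S phase.

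Most nucleotide synthesis genes were higher in the stretched culture. In the brightest probe set, 25 of 29 genes lay above 0 on the log2 scale of stretched minus non-stretched and 4 lay below, whereas 50.5% of all 13453 measured genes lay above 0. At least 2-fold higher were 8 genes (27.6%), against 7.78% of all measured genes, and 0 were at least 2-fold lower, against 7.49% of all measured genes. A further 13 genes lay between 1.5-fold and 2-fold higher. At a 1.5-fold threshold, which was added after the values were seen, 21 of 29 genes were higher (72.4%), against 17.9% of all measured genes, and 0 were lower, against 16.7%. The median of the 29 genes was 0.87 (1.83-fold), beside 0.01 for all measured genes. The count of genes at least 2-fold higher was 15 when each gene's measured probe sets were averaged (7.56% of all measured genes) and 13 when the arrays were centred on the spike-ins (9.79% of all measured genes), which moved the median of all genes to 0.12; centring on the 75th percentile moved that median to -0.10 and left the count at 8.

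**Figure D1:**
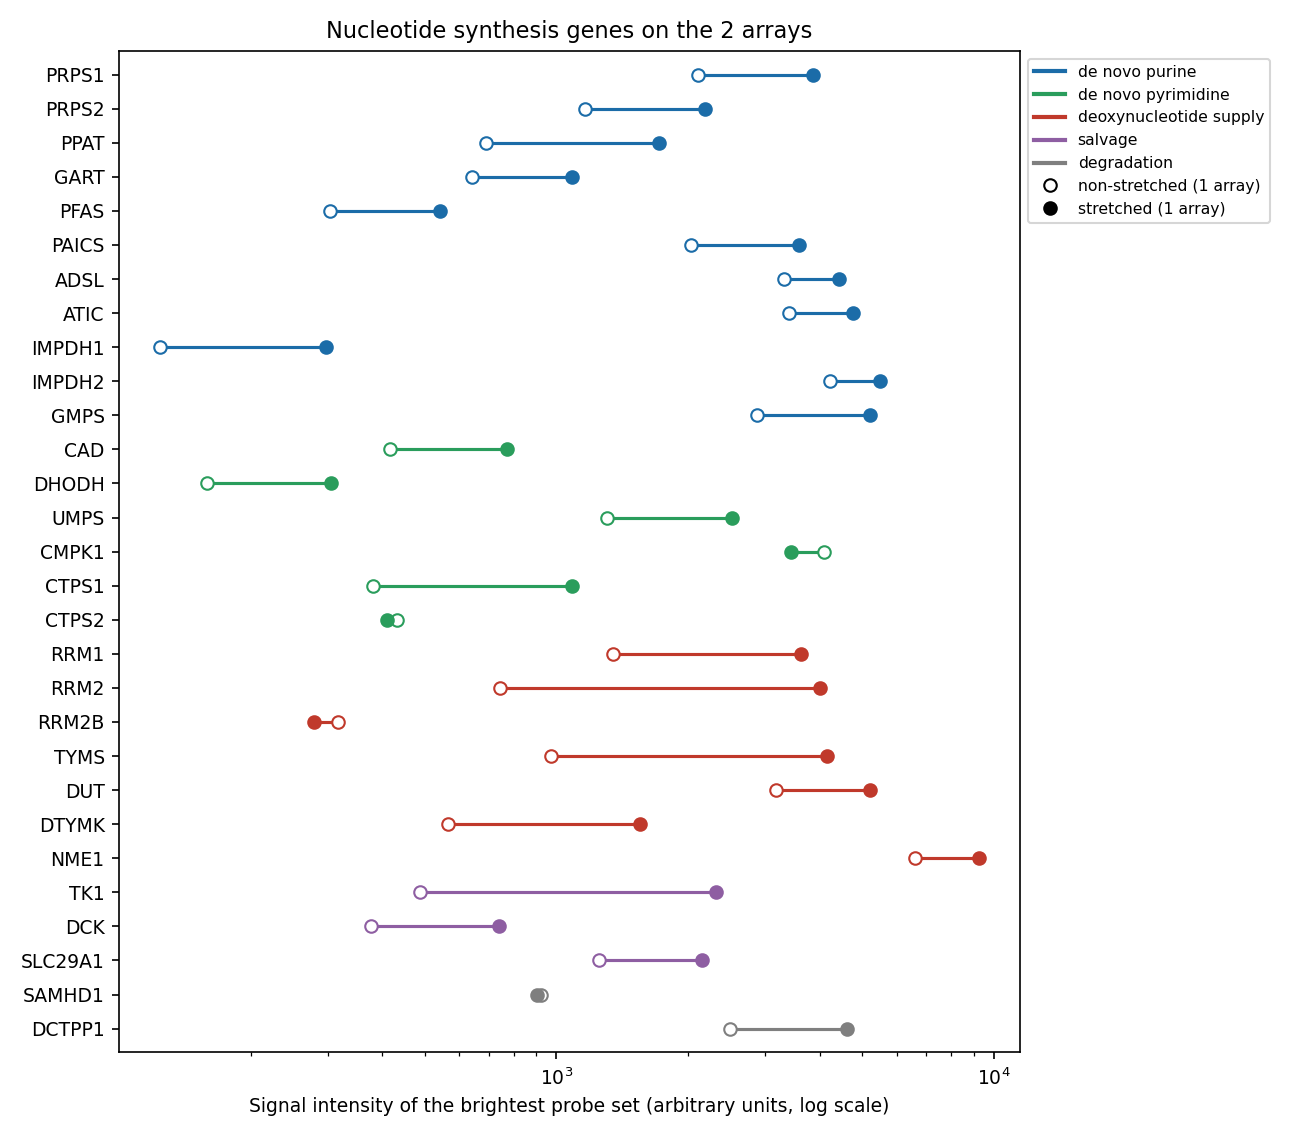
Signal intensity (log axis, arbitrary units) of the brightest probe set of 29 nucleotide synthesis genes in the non-stretched (open) and stretched (filled) array, 1 array each, with lines joining the values of a gene. The filled point lies to the right of the open one for 25 genes, with the longest lines for RRM2, TK1 and TYMS, and to the left for CMPK1, CTPS2, RRM2B and SAMHD1; intensities of different genes are not comparable with each other.

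The genes that supply deoxynucleotides for DNA synthesis differed most, with a median of 1.43 (2.69-fold) over 7 measured genes, of which 4 were at least 2-fold higher and 0 lower. RRM2, the small, radical-bearing subunit of ribonucleotide reductase, whose level follows the cell cycle, was at 743 without and 4014 with stretch, 5.40-fold higher. Its second probe set differed by the same amount, at 2.47 against 2.43 on the log2 scale. RRM1, the large subunit that carries the active and allosteric sites, went from 1346 to 3623, 2.69-fold higher, with log2 differences of 1.43 and 1.72 in its probe sets. Both subunits of the S-phase enzyme were thus higher in the stretched array. RRM2B, the alternative small subunit that supplies quiescent and damaged cells and is a target of p53, had 1 probe set, at 317 without and 279 with stretch. Its log2 difference of -0.19 is smaller than the SD of a probe set, and it lay 2.62 below that of RRM2 on the same scale.

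The enzymes that lead to dTTP were higher as well. TYMS, thymidylate synthase, which methylates dUMP to dTMP, was at 972 without and 4165 with stretch, 4.29-fold higher, and its other measured probe set went from 445 to 2367. DTYMK, the kinase that phosphorylates dTMP, was at 565 and 1552, 2.75-fold higher in its brightest probe set and 3.79-fold higher in the next; the dimmest measured one, close to the floor at 32.8 and 34.0, differed by 0.06 on the log2 scale. These are successive steps of a single route, and both were past 2-fold in each of their bright probe sets. DUT, the dUTPase that supplies dUMP and keeps uracil out of DNA, was higher by differing amounts in its 3 probe sets. The brightest went from 3185 to 5204 (1.63-fold), the second from 1814 to 3535 (1.95-fold) and the dimmest from 175 to 663 (3.79-fold). DUT therefore lay under 2-fold by its brightest probe set, which ends in _x_at and can bind related transcripts, and at 1.92 on the log2 scale without such probe sets. NME1, a nucleoside diphosphate kinase that completes the triphosphates, was at 6607 and 9257, 1.40-fold higher in its only probe set.

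Start regions are shown for 5 deoxynucleotide supply and salvage genes past 2-fold (TYMS, DTYMK, RRM1, TK1 and RRM2), and for DUT, which lay at 1.63-fold by its brightest probe set, because these windows hold matches to the patterns searched. Windows from 250 bases before to 50 bases after annotated starts were taken from RefSeq (GRCh38.p14) for 29 of the 32 genes. These are not the 29 genes with values. ADSL, IMPDH2 and RRM2B had no window, while ADSS2, NME2 and UCK2, which have no values, had one. In these windows 3 letter patterns were searched on both strands. The patterns were an E2F-type set (TTTCCCGC, TTTGGCGC, TTTCGCGC or TTTGCCGC), the E-box CACGTG and the CCAAT box CCAAT. In the stretches below, written 5′ to 3′ on the strand of the gene, capitals mark matches to these patterns. The TYMS stretch (chr18:657533-657652, plus strand) holds the 120 bases before the start, as do those of DTYMK (chr2:241686816-241686935, minus strand) and RRM1 (chr11:4094565-4094684, plus strand). For DUT (chr15:48332152-48332181, plus strand), TK1 (chr17:78187083-78187112, minus strand) and RRM2 (chr2:10122634-10122663, plus strand), 30 bases around a match are given, ending 16, 31 and 76 bases before a start that has further annotated starts upstream.
TYMS: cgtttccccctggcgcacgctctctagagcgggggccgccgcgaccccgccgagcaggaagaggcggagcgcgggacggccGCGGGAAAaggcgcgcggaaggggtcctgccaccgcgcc
DTYMK: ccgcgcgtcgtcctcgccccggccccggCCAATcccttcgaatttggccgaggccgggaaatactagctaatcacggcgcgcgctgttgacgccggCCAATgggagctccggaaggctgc
RRM1: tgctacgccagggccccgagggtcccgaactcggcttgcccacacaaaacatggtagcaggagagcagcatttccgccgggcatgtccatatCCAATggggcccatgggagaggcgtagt
DUT: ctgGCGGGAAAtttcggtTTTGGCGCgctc
TK1: ggggccggctcgtgATTGGccagcacgccg
RRM2: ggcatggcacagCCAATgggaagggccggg

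An E2F-type match lay 39 bases before the TYMS start, and a pair lay 42 and 27 bases before the most downstream of the 4 DUT starts. CCAAT lay 92 and 24 bases before the DTYMK start and 28 bases before that of RRM1. RRM2 held 3 CCAAT matches, 123, 93 and 66 bases before its downstream start, and TK1 held a pair in inverted form, 77 and 46 bases before its own. Neither RRM2 nor TK1 held one of the E2F-type spellings in these windows. E2F-type matches were found for 5 of the 29 genes with a window (17.2%), namely DCK, DUT, GART, PRPS2 and TYMS. The share was 3.99% of the 27305 genes in the promoter table. E-boxes were found for 8 of these 29 (27.6%) and for 8.78% of all genes. CCAAT was found for 11 of these 29 (37.9%), among them UCK2, which has no value, and for 39.7% of all genes. A match is a description of the letters in a window and not a bound site.

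**Figure D2:**
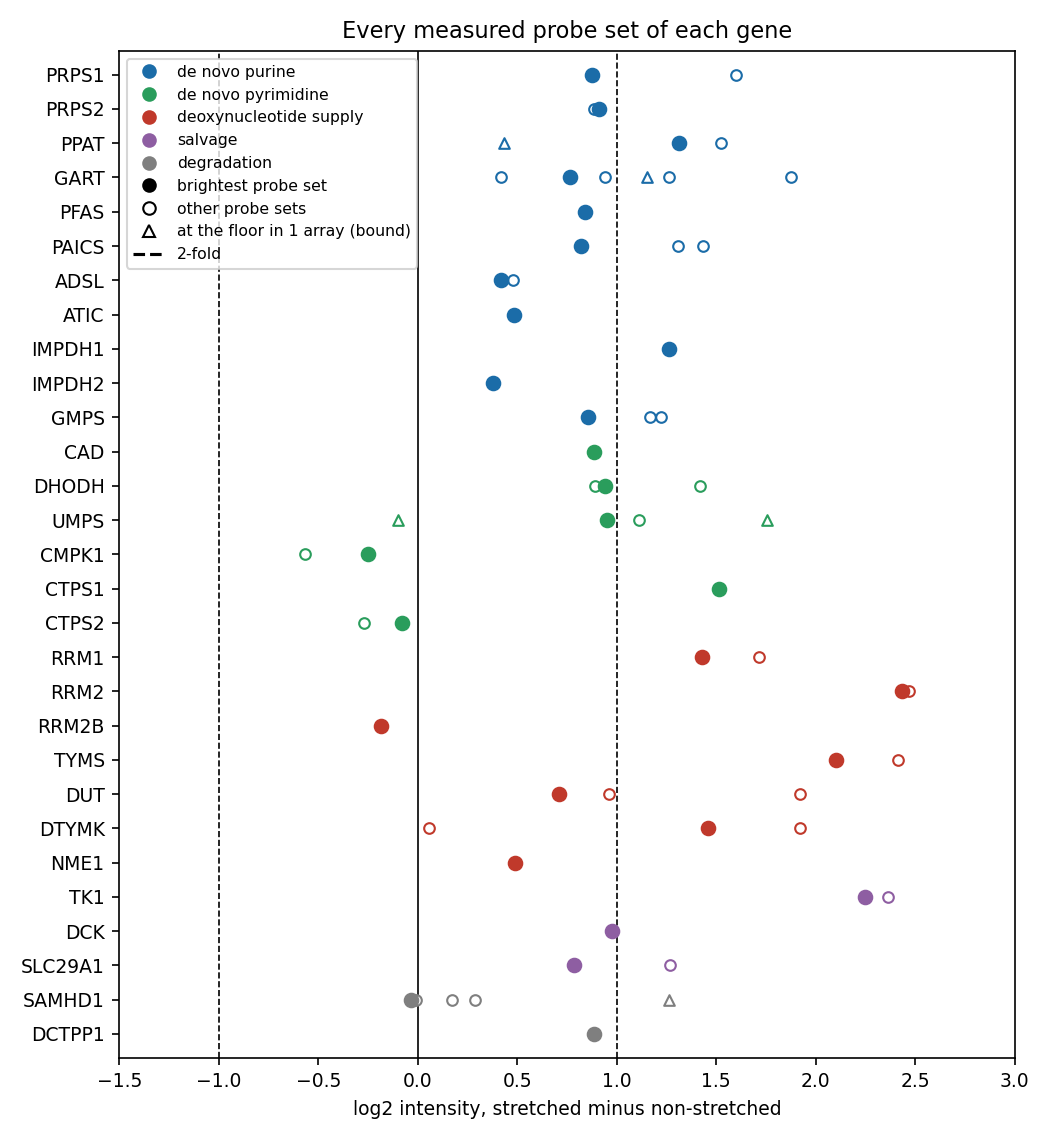
Log2 difference (stretched minus non-stretched) of each of the 63 measured probe sets of 29 genes, filled for the brightest probe set of a gene, with triangles for the 5 probe sets at the floor in 1 array, whose difference is a bound, and dashed lines at 2-fold. Of these probe sets, 55 lie above 0, 28 are at least 2-fold higher and 0 are at least 2-fold lower, and the shares over all probe sets are not given.

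Among the salvage genes, all 3 measured were above 0 (median 0.98, 1.97-fold) and 1 passed 2-fold. TK1, the cytosolic thymidine kinase that is made in S phase and degraded at mitotic exit, was at 487 without and 2312 with stretch, 4.75-fold higher, and its second probe set went from 322 to 1652. DCK, the deoxycytidine kinase that also activates nucleoside drugs, was at 376 and 741, 1.97-fold higher and just under the threshold. SLC29A1, the equilibrative nucleoside transporter of the plasma membrane, was at 1252 and 2157 in its brightest probe set (1.72-fold) and at 362 and 872 in the other, where the log2 difference was 1.27. The degradation genes went separate ways. SAMHD1, the triphosphohydrolase that destroys dNTPs in non-dividing cells, was at 924 and 903, a log2 difference of -0.03, and its next probe set differed by -0.01. Dimmer SAMHD1 probe sets were at 0.17 and 0.29, and one with a non-stretched value at the floor was at least 2.40-fold higher (28.4 to 68.9). DCTPP1, a pyrophosphatase that clears modified and surplus dCTP, went from 2501 to 4629, 1.85-fold higher in its only probe set.

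Genes of de novo purine synthesis were higher without exception among the 11 measured, with a median of 0.84 (1.79-fold), a range of 0.38 to 1.31, and 2 past 2-fold. PRPS1 and PRPS2 make phosphoribosyl pyrophosphate, the activated ribose on which the ring is built. PRPS1 was at 2105 without and 3856 with stretch (1.83-fold) and PRPS2 at 1160 and 2184 (1.88-fold), so the 2 isozymes lay within 0.04 of each other on the log2 scale. A second PRPS1 probe set, ending in _s_at, was at 1.60, above both PRPS2 probe sets (0.91 and 0.89).

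PPAT, the amidotransferase that commits phosphoribosyl pyrophosphate to purines and is inhibited by its end products, had the largest difference of the purine enzymes by brightest probe sets, from 690 to 1713, 2.48-fold. Its second probe set was at 1.52 on the log2 scale; both end in _s_at, and the remaining probe set, with a non-stretched value at the floor, was at least 1.35-fold higher (26.3 to 38.7). With probe sets averaged PPAT was at 1.09, below IMPDH1 (1.26), PRPS1 (1.24) and PAICS (1.19), and without probe sets of these endings it was at 0.43. GART, a trifunctional enzyme of the early ring-building steps, went from 640 to 1086 (1.70-fold) and had 6 measured probe sets between 0.42 and 1.88. PFAS, the amidotransferase that acts between GART reactions, was at 303 and 542 (1.79-fold). By brightest probe sets, GART and PFAS thus stayed under 2-fold. PAICS, bifunctional for the next steps, went from 2035 to 3587 (1.76-fold), while its second probe set went from 824 to 2228. ADSL, adenylosuccinate lyase, which acts in ring synthesis and again in AMP synthesis, was at 3310 and 4424, 1.34-fold higher, and its other probe set was at 0.48. ATIC, which closes the ring to inosine monophosphate, was at 3409 and 4770, 1.40-fold higher. By brightest probe sets ADSL and ATIC had smaller differences than PPAT, an order that was not tested and did not hold for ATIC (0.48) against PPAT (0.43) without probe sets ending in _s_at or _x_at.

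At the branch to guanine nucleotides, the 2 isozymes of IMP dehydrogenase, the rate-limiting enzyme, differed. IMPDH1, usually the constitutive form, was at 124 without and 298 with stretch, 2.40-fold higher, and IMPDH2, usually the form of proliferating cells, was at 4229 and 5489, 1.30-fold higher. Each had 1 probe set. The IMPDH1 difference was 0.37 when the floor was raised to the 75th percentile, which lay above its non-stretched value, so its call rests on a dim signal. GMPS, which aminates XMP to GMP, went from 2877 to 5206 (1.81-fold), and its other probe sets were at 1.22 and 1.17.

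PPAT and PAICS lie head to head, and their nearest annotated starts are 137 bases apart on chromosome 4. The 136 bases between them (chr4:56435616-56435751) are printed on the strand of PPAT because both genes were higher; they hold none of the patterns searched.
PPAT and PAICS: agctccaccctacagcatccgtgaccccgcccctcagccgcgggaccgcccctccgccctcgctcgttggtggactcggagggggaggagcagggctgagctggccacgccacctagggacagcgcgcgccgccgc

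An E-box lies outside this stretch, 182 bases before the PPAT start and 41 bases into the PAICS transcript. It is a single site that counts for both genes in the shares given above. E-boxes also lay 46 bases before the ATIC start, 9 bases before that of DCTPP1 and 159 bases before that of DHODH.

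De novo pyrimidine synthesis divided into 4 genes that were higher and 2 that were not, with a median of 0.91 (1.88-fold) and 1 gene past 2-fold. CAD, the trifunctional enzyme of the first 3 steps, was at 417 without and 770 with stretch, 1.85-fold higher. DHODH, the mitochondrial dehydrogenase that feeds electrons to ubiquinone, went from 159 to 306 (1.92-fold), with 3 probe sets between 0.89 and 1.42; with a floor raised to the 75th percentile, above its non-stretched value, it was at 0.40. UMPS, which attaches the ribose and decarboxylates to UMP, went from 1304 to 2522 (1.93-fold), and its second probe set was at 1.11. The dimmer UMPS probe sets each exceeded the floor on 1 array and pointed in opposite directions, at least 3.37-fold higher in one (25.0 to 96.8) and at least 1.07-fold lower in the other (30.3 to 21.8). These 3 enzymes make up the whole route to UMP and lay within 1.85-fold to 1.93-fold.

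Beyond UMP the genes went separate ways. CMPK1, the kinase for UMP and CMP, was at 4099 and 3445, a log2 difference of -0.25, and its second probe set was at -0.57. CTPS1, the CTP synthase needed for lymphocyte proliferation, was at 381 without and 1088 with stretch, 2.85-fold higher. CTPS2, its paralog, was at 433 and 409, a log2 difference of -0.08, with -0.27 in the second probe set, so CTPS1 lay 1.59 above it on that scale. The sign of CTPS2 turned with the arrays centred on the spike-ins (0.03).

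Among 4 pairs of paralogs with a value for each gene, the pairs differed in how far they separated. The first gene exceeded the second by 2.62 on the log2 scale for RRM2 and RRM2B, by 1.59 for CTPS1 and CTPS2, and by 0.89 for IMPDH1 and IMPDH2, while PRPS1 and PRPS2 differed by -0.04. Each separation holds the noise of 2 probe sets, so the SD of 0.36 for a single probe set understates its spread. There is no replicate against which to test the separations.

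Where 2 probe sets of a gene exceeded the floor on both arrays, these gave the same sign in all 19 genes. The dimmer of the 2 was the more positive in 16 of 19. Of 15 genes whose brightest probe set was at least 1.5-fold higher, the second showed the larger difference in 14 and passed 2-fold in 12. Over all genes with such a brightest probe set, the second showed the larger difference in 475 of 991 (47.9%). For the same sign, the more positive second probe set and its passing of 2-fold, no share over all genes is given. Without such shares, those counts cannot show whether this list differs from other genes. The count of 8 genes past 2-fold by brightest probe set stood beside 17 genes with at least 1 measured probe set past 2-fold and 6 with every measured probe set past it. Over the 13473 genes with any measured probe set, these rules took 12.1% and 5.94%.

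**Figure D3:**
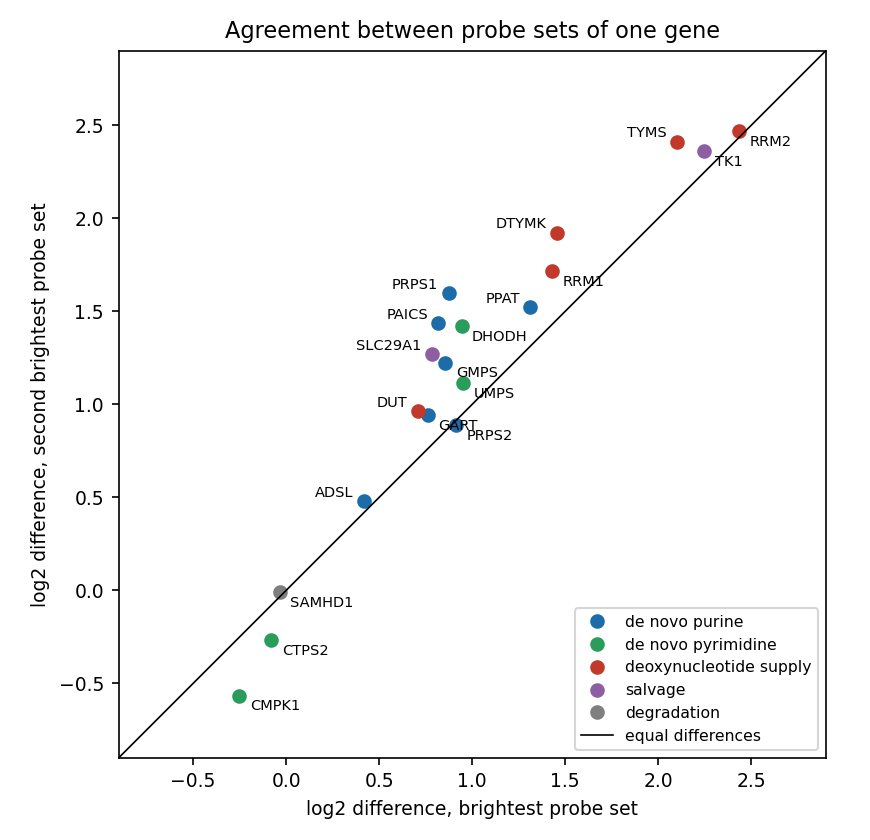
Log2 difference (stretched minus non-stretched) of the second brightest against the brightest probe set for the 19 genes with 2 probe sets exceeding the floor on both arrays, with the line of equal differences. Points lie above the line for 16 genes and below it for CMPK1, CTPS2 and PRPS2, and in both probe sets RRM2, TK1 and TYMS are the highest.

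Other genes of nucleotide metabolism lay on both sides of 0. Of 50 further genes, 46 were named and 41 measured, with a median of 0.05. Past 2-fold were 4 in each direction (9.76% each), near the shares of all measured genes, 7.78% higher and 7.49% lower. Among 11 further kinases and interconverting enzymes the median was -0.04. AK1, an adenylate kinase, went from 94.8 to 229 (2.41-fold higher), CMPK2, a mitochondrial UMP/CMP kinase induced by interferon, from 206 to 80.7 (2.55-fold lower), and ADSS1, the muscle-type adenylosuccinate synthase, from 337 to 141 (2.39-fold lower), although its second probe set was at -0.15. Among 12 further salvage enzymes and carriers the median was -0.07, with 0 at least 2-fold higher and 2 lower. The lysosomal nucleoside transporter SLC29A3 went from 403 to 99.6 (4.05-fold lower), and the concentrative transporter SLC28A3 from 202 to 53.7 (3.77-fold lower), with -0.24 in its second probe set. Both signs were opposite to that of SLC29A1.

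Among 18 further degradation and pool-cleaning enzymes the median was 0.37, with 3 at least 2-fold higher (16.7%) and 0 lower. Of all measured genes, 7.78% were at least 2-fold higher and 7.49% lower. PNP, purine nucleoside phosphorylase, went from 1005 to 2141 (2.13-fold), and NUDT1, which hydrolyses oxidised purine triphosphates, from 311 to 675 (2.17-fold). XDH, xanthine dehydrogenase, went from 77.9 to 161 (2.07-fold), with a second probe set at -0.49. Each of these lay close to the threshold.

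**Figure D4:**
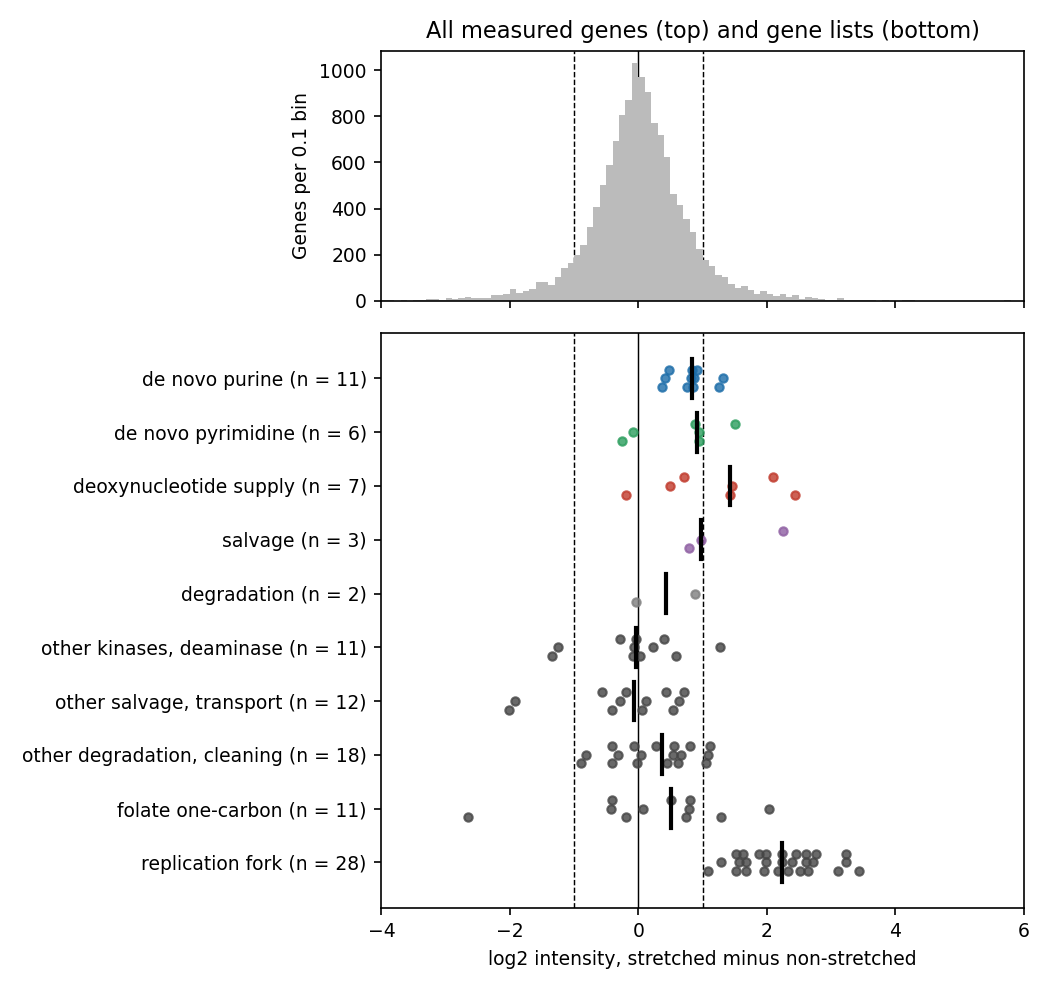
Log2 difference (stretched minus non-stretched) of all 13453 measured genes as a histogram (top) and of the measured genes of each list as points with the median as a bar (bottom), with dashed lines at 2-fold. The median of deoxynucleotide supply (1.43) lies between those of de novo purine synthesis (0.84) and of the replication fork (2.24), and those of the further kinases and salvage genes lie near 0.

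Set beside DNA replication fork genes, the nucleotide genes had smaller differences. In the brightest probe set, all 28 fork genes were at least 2-fold higher, against 8 of 29 here and 7.78% of all measured genes. Their range was 1.09 to 3.44 and their median 2.24 (4.73-fold), against a median of 0.87 here. Some other probe sets of fork genes lay under 2-fold, the lowest at -0.33. RRM2, TK1 and TYMS, at 2.43, 2.25 and 2.10, lay within the range of the fork genes, as did DTYMK, RRM1, CTPS1, PPAT and IMPDH1 (1.26 to 1.51), whereas the other 21 genes lay below its lower end. Folate one-carbon genes, which donate carbons to purines and to thymidylate, had a median of 0.51 over 11 measured genes. Of these, 2 were at least 2-fold higher (18.2%) and 1 lower, against 7.78% and 7.49% of all measured genes. MTHFD1, which makes the formyl donor for the purine ring, was 1.75-fold higher (1652 to 2889), close to GART and PAICS. SHMT2 and MTHFD2 were at -0.42 and -0.19. By brightest probe sets, the largest differences of the folate list were those of ALDH1L2 (445 to 70.5, -2.66), MTHFD2L (71.15 to 291, 2.03) and SLC19A1 (1.29). The second probe set of ALDH1L2, at the floor in the stretched array, was at -0.31, a bound, and that of MTHFD2L was at 0.29. Differences between these lists, which were chosen with earlier results of these data known, were not tested, since each condition has 1 array.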

How the data were processed

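RNA from 1 stretched and 1 non-stretched Calu-3 culture was measured on 2 Affymetrix arrays. The deposited table gives 1 linear signal intensity per probe set and array for 54675 probe sets (62 controls). The algorithm and scaling that produced them are not stated in the labels. Intensities ran from 0.66 to 17518, so their logarithm was taken here.

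Probe sets assigned to a single gene by the platform annotation were used, with symbols updated through RefSeq gene IDs. From the deposited values log2 intensities were computed, with a floor at the 50th percentile of each array (28.7 non-stretched, 28.4 stretched). A gene was measured if above this floor in at least 1 array and was represented by its brightest probe set. With 1 array per group there is no test. The calling code was run on simulated arrays with inserted changes. That run checks the code only, since the simulated arrays hold no variation between cultures. The members, gene lists and motifs were chosen with earlier results of these data known. All members are named in the text, with those genes of the other pathway lists that differed at least 2-fold and some folate one-carbon genes. The 7 other settings tried changed the floor, the choice of probe set or the scaling. Python 3.11.15, pandas 2.3.3, numpy 2.4.6, statsmodels 0.14.6 and matplotlib 3.10.9 were used.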

Additional observations from a re-analysis of the deposited data

How the results depend on the processing

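The count of genes at least 2-fold higher was 8 with no floor, with a loess trend removed and after 75th-percentile centring, 7 after raising the floor to the 75th percentile and 9 after dropping probe sets with _x_at or _s_at endings, where 25 genes were left. It was 13 after centring on the spike-ins, 15 with probe sets averaged and 21 at 1.5-fold, a threshold chosen after seeing the data. The 8 genes were among the called ones under each of the 3 scalings, with no floor and with probe sets averaged. IMPDH1 was not after raising the floor, and PPAT (0.43) and RRM1 were not after dropping probe sets by ending, RRM1 for lack of another probe set. The count at least 2-fold lower was 0 under all 7 settings and at 1.5-fold. The median over the 29 genes ranged from 0.77 to 1.03. For deoxynucleotide supply the median was 1.92 after dropping probe sets by ending. With probe sets averaged it was 1.20, closer to that of de novo purine synthesis, which was then 1.07. The share of all measured genes at least 2-fold lower was 4.59% with the raised floor and 12.0% with no floor. SAMHD1 turned positive after centring on the spike-ins (0.08), with probe sets averaged (0.34) and after dropping probe sets by ending (0.17). The cause of these shifts was not tested. Calls depend on 1 array per condition and, for dim probe sets, on signal near the floor. No paired analysis was possible because each group has 1 array.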
